A study of Cavia porcellus with 13 samples.

Results

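The collagen chain genes of guinea pig skin were followed through 13 RNA sequencing libraries taken after tick bites or from unbitten skin. A gene belonged to the set when its symbol in the deposited expression table had the form of a collagen chain name (COL, a collagen type number, A and a chain number) and its level reached at least 1 TPM in at least 2 of the 13 libraries. TPM is a transcript's length-scaled share of its library, so levels can be compared between genes. Of the 26855 genes in the table, 33 carried such a symbol and 26 of them passed, among 14979 genes that passed the same filter. The 26 chains were 7 fibrillar chains, 5 basement membrane chains, 3 FACIT chains (fibril-associated collagens with interrupted triple helices), 1 hemidesmosomal chain, 4 beaded filament chains, 2 short-chain network chains and 4 others.

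All libraries held total RNA of skin from guinea pigs (Cavia porcellus) and carried day 4 as their time point. Library titles had either of 2 prefixes, CK1 and EF19-5, which were taken as 2 experiments, and groups were compared within them. CK1 (8 libraries) held skin bitten in a first exposure (3 libraries), bitten skin of the group labelled saliva immune (3 libraries) and unbitten naive skin (replicates 1 and 2). EF19-5 (5 libraries) held skin of the groups labelled 2 bites (2 libraries) and 3 bites (2 libraries) and naive replicate 3. Strain, age, sex, the way of saliva immunization and whether each library came from a separate animal were not given in the sources used here, so the p-values below measure the spread between these libraries, which may be technical. Both EF19-5 comparisons with naive skin rested on that 1 naive library.

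Collagens are triple helices of 3 chains. The fibrillar types I, III and V form the load-bearing fibres of the dermis and are made mainly by fibroblasts. FACIT collagens sit on the surface of those fibres, type VI forms beaded filaments around cells, type IV builds the sheet under the epidermis and around vessels, and type XVII anchors basal keratinocytes to that sheet.

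The basal keratinocyte genes KRT14 (at least 4287 TPM) and KRT5 (at least 1733 TPM) were high in every library of this skin series. Tissue make-up differed between libraries and with the groups. Adipocyte markers summed to 0.568% to 1.53% of all TPM in the 6 bitten and to 0.218% and 0.314% in the 2 naive CK1 libraries, and 12 of 13 were higher in first exposure and in saliva immune than in naive skin (median log2 differences 1.58 and 1.63). In EF19-5 they summed to 0.191% to 0.523% in bitten and 0.433% in naive skin, with 4 of 13 higher in either comparison with naive skin. The summed share of 35 skeletal muscle markers was 2.45% to 10.6% of all TPM in the 6 bitten and 9.79% and 17.0% in the 2 naive CK1 libraries. In EF19-5 it was 0.672% to 1.56% in bitten and 2.43% in naive skin. Over both experiments, 24 of these 35 were lower and 11 higher in bitten than in naive skin (median log2 difference -0.84, all genes 0.10). The smallest adjusted p among them, by limma, was 0.0413. The 13 measured skin fibroblast markers, none of them at 0 in any library, summed to between 0.0559% and 0.196%. The 3 bites replicates stood far apart, with 0.161% in replicate 1 and 0.0721% in replicate 2, and the fibroblast gene Dcn (decorin) was at 382 and 103 TPM in them. In bulk skin, fewer cells of a type and less RNA per cell cannot be told apart.

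Collagen transcripts made up between 0.218% and 1.27% of all TPM. In CK1, the share was 0.253%, 0.359% and 0.218% in first exposure skin, 0.298%, 0.255% and 0.434% in saliva immune skin, and 0.411% and 0.238% in naive skin, so the 3 groups overlapped. In EF19-5 it was 0.781% and 0.487% after 2 bites, 0.935% and 0.372% after 3 bites, and 1.27% in naive replicate 3. The naive library of EF19-5 thus held the highest share of the 13, above both naive libraries of CK1.

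A trio of chains carried most of this signal. COL1A1, COL1A2 and COL3A1, the chains of types I and III, averaged 1706, 966 and 1376 TPM over the 13 libraries and summed to between 72.6% and 93.6% of collagen TPM. Next came COL17A1 (197 TPM), COL6A2 (145 TPM) and COL4A1 (92.4 TPM). Both type V chains, COL5A1 and COL5A2, which set fibre diameter, averaged 69.8 TPM. The lowest of the 26 were COL6A5 (0.859 TPM), COL25A1 (0.795 TPM) and COL11A2 (0.731 TPM).

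**Figure D1:**
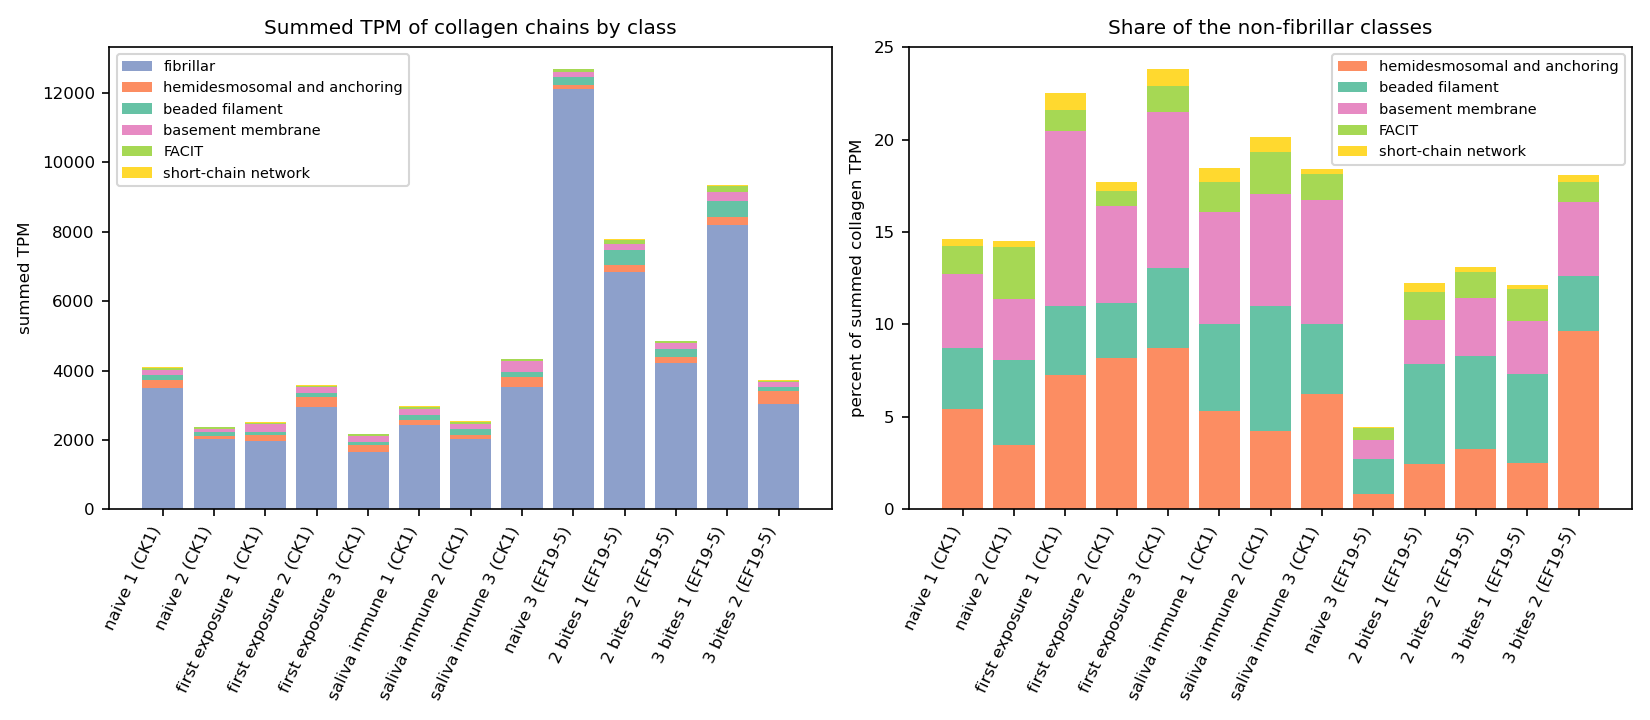
Left: summed TPM of the collagen chains in each library, stacked by class. Right: the non-fibrillar classes as a percent of the summed collagen TPM in the same libraries. Neither panel draws the 4 chains of no main class, which the summed collagen TPM includes. Naive replicate 3 has the tallest column (12702 TPM with those 4 chains counted) and the lowest non-fibrillar share. In the right panel the basement membrane segment is wider in bitten than in naive libraries of the same experiment.

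The filter left out 7 chains. COL9A1, COL22A1 and COL4A4 came closest to it, with highest values of 0.837, 0.777 and 0.623 TPM. COL24A1 and COL19A1 stayed at or below 0.165 and 0.135 TPM, the cartilage chain COL2A1 was above 0 in 1 library only (0.0389 TPM), and COL16A1 was listed at 0 in all 13. Just inside the filter, COL25A1 reached 1 TPM in 2 libraries (highest 2.18 TPM), and COL11A2 and COL6A5 did so in 3. Chains whose symbols were not among those of the table, such as COL6A1, COL7A1 and COL15A1, were not analysed here.

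No collagen chain passed the test in any comparison. With limma on log2(TPM + 1), Benjamini-Hochberg adjustment over 14979 genes and an adjusted p under 0.05, 0 of 26 chains were called in each of 8 comparisons. Few other genes were called either. The share of all genes called was 0.0334% in first exposure against naive skin, 0.00668% in saliva immune against naive skin, 0% in saliva immune against first exposure skin, 0.0134% in 2 bites and 0.00668% in 3 bites against naive skin, and 0% in 3 bites against 2 bites skin. It was 0.0401% in bitten against naive skin over both experiments and 0% for the difference of the bitten effect between them. The differences below are therefore measurements that did not pass this adjusted threshold over 14979 genes, unless said otherwise.

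At an unadjusted p under 0.05 by limma, 3 chains were higher and 2 lower in first exposure than in naive skin, where 9.15% and 4.49% of all genes were. In saliva immune against naive skin the numbers were 1 higher and 1 lower (9.55% and 2.08% of all genes), and in saliva immune against first exposure skin 1 higher and 0 lower (1.8% and 0.547%). After 2 bites 0 chains were higher and 3 lower than in naive skin (2.7% and 3.16%), and after 3 bites 1 was higher and 2 lower (1.65% and 0.694%). Between 3 bites and 2 bites skin 1 was higher and 0 lower (8.12% and 2.66%). Bitten skin as a whole had 4 chains higher and 2 lower than naive skin (11.2% and 4.58%), and for the difference of the bitten effect between experiments 0 chains passed in either direction (0.474% and 2.22%).

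Of 26 chains, 12 had a log2 difference above 0 in first exposure against naive skin (64.5% of all genes), 16 in saliva immune against naive skin (68.1%) and 19 in saliva immune against first exposure skin (54.5%). The number was 13 after 2 bites against naive skin (42.2%), 11 after 3 bites against naive skin (60.5%) and 13 in 3 bites against 2 bites skin (64.8%). It was 14 in bitten against naive skin (64.6%) and 12 for the difference between experiments (35.2%).

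**Figure D2:**
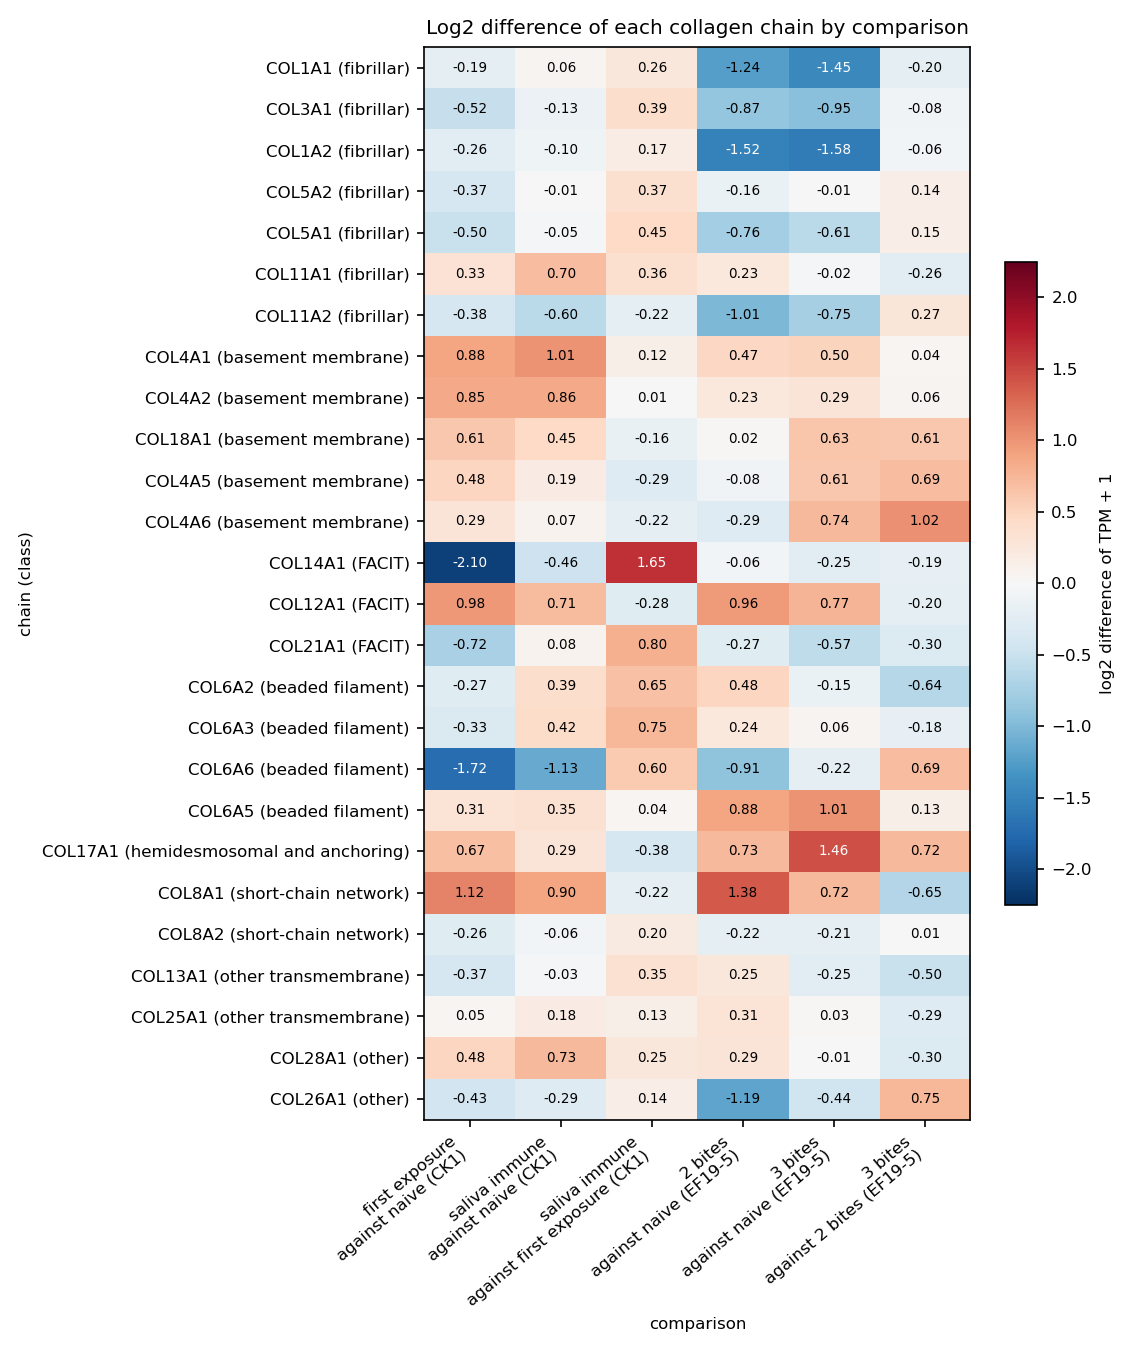
Log2 difference of TPM + 1 for each of the 26 chains (rows, with class) in the 6 comparisons between groups (columns); red is higher and blue lower in the group named first. COL14A1 holds both the lowest value (-2.10, first exposure against naive skin) and the highest (1.65, saliva immune against first exposure skin), and the fibrillar rows are mostly blue in the 2 columns that rest on naive replicate 3.

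Among the fibrillar chains, types I and III were not separated from naive skin in CK1. COL1A1 (ENSCPOG00000003329) was at 757, 1292 and 689 TPM in first exposure skin, 981, 817 and 1440 TPM in saliva immune skin, and 1405 and 716 TPM in naive skin. The EF19-5 values were 2733 and 1850 TPM after 2 bites, 2837 and 1342 TPM after 3 bites, and 5316 TPM in naive replicate 3. The CK1 groups overlapped. All 4 bitten EF19-5 libraries lay below their naive library, as for 43.3% of all genes after 2 bites and 24.2% after 3 bites. The log2 difference from naive skin was -0.19 (SE 0.43, limma adjusted p = 0.853) in first exposure skin and 0.06 (adjusted p = 0.968) in saliva immune skin. It was -1.24 (SE 0.58, adjusted p = 0.851) after 2 bites and -1.45 (SE 0.58, adjusted p = 1) after 3 bites.

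COL1A2, which joins a pair of COL1A1 chains in the type I molecule, followed the same order. Its levels were 449, 738 and 351 TPM in first exposure, 528, 371 and 839 TPM in saliva immune and 821 and 418 TPM in naive CK1 skin. After 2 bites they were 1492 and 878 TPM and after 3 bites 1673 and 722 TPM, against 3281 TPM in naive replicate 3. The ratio of COL1A1 to COL1A2 TPM stayed between 1.62 and 2.20 over all 13 libraries, so these chains varied together while each ranged widely.

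COL3A1, the single chain of type III, was at 657, 819 and 543 TPM in first exposure, 804, 749 and 1101 TPM in saliva immune and 1147 and 795 TPM in naive CK1 skin. Its EF19-5 values were 2392 and 1360 TPM after 2 bites, 3365 and 864 TPM after 3 bites and 3287 TPM in naive skin. Here 3 bites replicate 1 exceeded the naive library, which sets COL3A1 apart from COL1A1 and COL1A2 in that experiment.

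The difference of the bitten effect between experiments (EF19-5 minus CK1) was tested for each chain. It was -1.28 for COL1A1 (SE 0.61, limma adjusted p = 1.00) and -1.37 for COL1A2 (SE 0.69, adjusted p = 1.00), the 2 smallest p-values among the chains. Within CK1 the bitten effect on COL1A1 was -0.06 and within EF19-5 -1.34, and for COL1A2 these values were -0.18 and -1.55. Because EF19-5 had 1 naive library, its level and the experiment's naive level cannot be told apart.

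The other fibrillar chains were lower in level. COL5A1 ranged from 31.4 to 164 TPM and COL5A2 from 37.4 to 158 TPM. In CK1 every first exposure library was below both naive libraries for COL5A1 (31.4 to 44.7 against 49.9 and 62.9 TPM) and for COL5A2 (37.4 to 46.4 against 50.3 and 59.2 TPM). Of all genes, 14.1% did not overlap in that direction. Saliva immune skin overlapped naive skin for COL5A1 (43.7 to 71.4 TPM) and COL5A2 (42.6 to 71.2 TPM). Bitten EF19-5 libraries lay on both sides of the naive one. They were at 45.8 to 164 against 133 TPM for COL5A1 and at 62.1 to 158 against 100 TPM for COL5A2. COL11A1, a minor fibre chain, ranged from 2.53 to 10.8 TPM.

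COL11A2 had the smallest p among the chains in 2 bites against naive skin. It was at 0.0319 and 0.327 TPM after 2 bites, 0.293 and 0.531 TPM after 3 bites and 1.36 TPM in naive replicate 3. In CK1 it was at 0.652, 1.26 and 0.567 TPM in first exposure, 0.480, 0.322 and 0.877 TPM in saliva immune and 1.95 and 0.850 TPM in naive skin. Over both experiments its log2 difference in bitten skin was -0.62 (SE 0.21, limma adjusted p = 0.200). These are levels near or under 1 TPM, where the log2(TPM + 1) scale understates a change. COL11A2 reached 1 TPM only in first exposure replicate 2 and naive replicates 1 and 3, so it passed the filter largely through naive skin.

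As a class, 1 of 7 fibrillar chains was higher and 6 lower in first exposure than in naive skin, with a median log2 difference of -0.37 against 0.14 over all genes. In saliva immune skin the fibrillar median was -0.05, after 2 bites -0.87 and after 3 bites -0.75. With either naive library of CK1 left out, the fibrillar count in first exposure skin became 3 of 7 higher (without naive replicate 1) or 0 of 7 (without naive replicate 2), and in saliva immune skin it became 6 of 7 or 1 of 7. With 3 bites replicate 1 left out, the fibrillar median against naive skin was -1.52, and without replicate 2 it was -0.03.

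**Figure D3:**
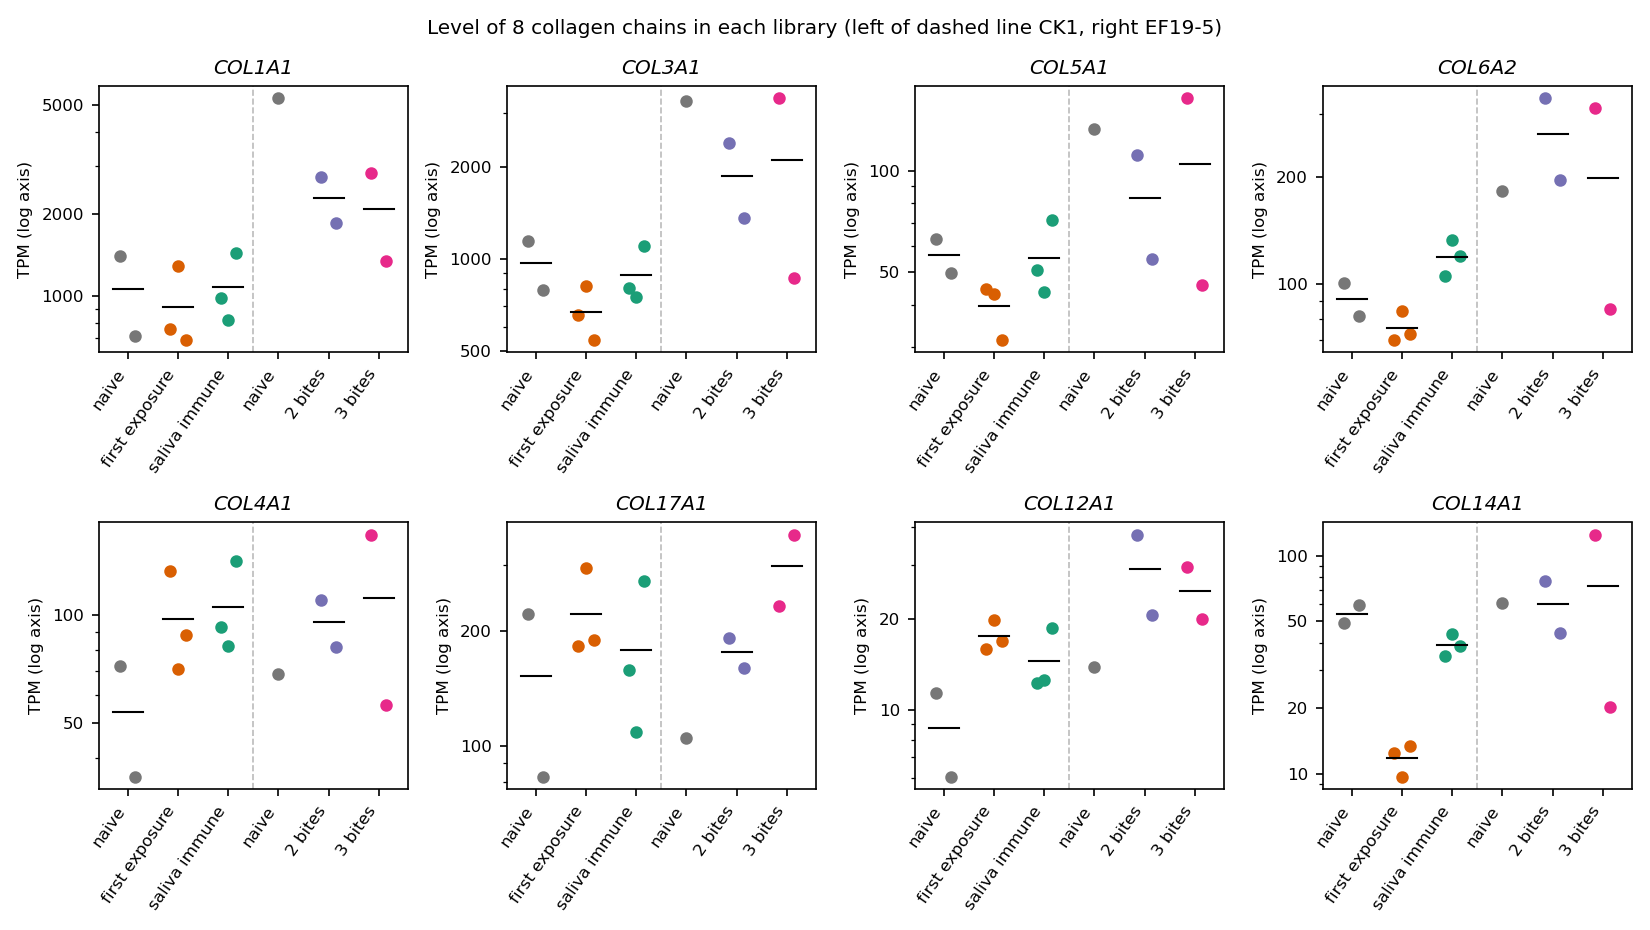
TPM of 8 chains in each library on log axes; points are libraries, coloured by group, and black bars are group means where a group has more than 1 library. COL14A1 is at 9.73 to 13.4 TPM in the 3 first exposure libraries, below every other library, and COL1A1 is highest in naive replicate 3 (5316 TPM).

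The 2 main type IV chains lay above both naive libraries in most bitten libraries of CK1 (COL4A1 in 5 of 6 and COL4A2 in 6 of 6), while the 3 other basement membrane chains did so in 2 of 6 each. COL4A1, which pairs with COL4A2 in the common form of type IV, was at 133, 70.8 and 88.4 TPM in first exposure, 92.6, 82.2 and 142 TPM in saliva immune and 72.1 and 35.5 TPM in naive skin. After 2 bites it was at 110 and 81.6 TPM, after 3 bites at 168 and 56.3 TPM, and in naive replicate 3 at 68.5 TPM. Of the 10 bitten libraries, only first exposure replicate 2 and 3 bites replicate 2 were below a naive library of the same experiment. The log2 difference of bitten from naive skin was 0.78 (SE 0.31, limma adjusted p = 0.248), being 0.94 within CK1 and 0.48 within EF19-5.

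COL4A2 was at 55.7, 41.8 and 47.4 TPM in first exposure, 41.7, 39.1 and 68.5 TPM in saliva immune and 36.8 and 18.5 TPM in naive CK1 skin, with no overlap between bitten and naive libraries. Of all genes, 21.9% were likewise higher without overlap in first exposure and 18.5% in saliva immune skin. The share for both groups together was not counted. In EF19-5 the COL4A2 values were 42.4 and 36.9 TPM after 2 bites, 58.3 and 29.2 TPM after 3 bites and 33.5 TPM in naive skin. Bitten skin differed from naive skin by 0.65 on the log2 scale (SE 0.24, limma adjusted p = 0.229), by 0.86 within CK1 and by 0.26 within EF19-5. The ratio of COL4A1 to COL4A2 TPM was between 1.69 and 2.89.

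Of the other basement membrane chains, COL18A1, whose tail is cut to release endostatin, was at 41.5, 61.6 and 40.4 TPM in first exposure, 38.4, 27.9 and 68.7 TPM in saliva immune and 45.9 and 20.2 TPM in naive CK1 skin. COL4A5 was at 7.53, 10.8 and 7.16 TPM, 6.15, 4.09 and 11.3 TPM, and 8.45 and 3.75 TPM in the same groups. For both chains only first exposure replicate 2 and saliva immune replicate 3 exceeded both naive libraries. In EF19-5, COL18A1 was at 26.5 and 25.6 TPM after 2 bites, 31.1 and 52.1 TPM after 3 bites and 25.7 TPM in naive skin, and COL4A5 at 3.92 and 6.90 TPM, 9.37 and 8.79 TPM, and 5.59 TPM. COL4A6, its partner under the epidermis, was at 1.62, 2.43 and 1.38 TPM in first exposure, 1.2, 1.1 and 1.92 TPM in saliva immune and 1.89 and 0.780 TPM in naive CK1 skin. In EF19-5 it was at 0.799 and 0.232 TPM after 2 bites, 2.24 and 1.82 TPM after 3 bites and 0.814 TPM in naive skin. It had the smallest p of the chains in 3 bites against 2 bites skin, with a log2 difference of 1.02 (SE 0.33, limma adjusted p = 0.364).

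All 5 basement membrane chains were higher in first exposure than in naive skin (median log2 difference 0.61, all genes 0.14) and all 5 in saliva immune skin (median 0.45, all genes 0.14). Median-of-ratios scaling, which brought the all-gene medians to 0.00 and -0.01, left 5 of 5 basement membrane chains higher in first exposure and 4 of 5 in saliva immune skin, while quantile scaling left 3 of 5 in saliva immune and 4 of 5 in bitten skin over both experiments. The direction depended on naive replicate 2, the library with the highest muscle share (17.0%). Without it, 3 of 5 basement membrane chains were higher in first exposure skin (median 0.03) and 2 of 5 in saliva immune skin (median -0.13). Without naive replicate 1 the same medians were 1.18 and 1.02. Over both experiments 5 of 5 were higher in bitten skin (median 0.46, all genes 0.10), as they were after 3 bites (median 0.61, all genes 0.08), and 3 of 5 were higher after 2 bites (median 0.02, all genes -0.06). Without naive replicate 2 the basement membrane median over both experiments was 0.13.

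As a share of collagen TPM, the basement membrane chains made up 9.47%, 5.23% and 8.47% in first exposure, 6.05%, 6.06% and 6.73% in saliva immune, and 4.02% and 3.30% in naive CK1 skin. In EF19-5 they made up 2.36% and 3.10% after 2 bites, 2.88% and 3.98% after 3 bites, and 1.06% in naive skin. Every bitten library was above every naive library of its experiment in this share, which also falls when types I and III are abundant. Endothelial cells make type IV around vessels. Of 10 measured endothelial markers, 10 were higher in first exposure than in naive skin (64.5% of all genes were). Their summed shares were 0.00991% to 0.0162% against 0.00658% (naive replicate 2) and 0.0105% (naive replicate 1), so naive replicate 1 lay within the first exposure range. Compared with naive skin, 10 of 10 were also higher in saliva immune skin (68.1% of all genes). After 2 bites 9 of 10 were higher (42.2%), and after 3 bites 9 of 10 (60.5%). None of the 10 was at 0 in any library. These endothelial counts were not redone without naive replicate 2. Adipocytes, which also make type IV collagen, had ADIPOQ (adiponectin) at 506 to 1509 TPM in bitten and at 82.9 and 266 TPM in naive CK1 skin. In EF19-5 ADIPOQ was at 197 to 756 TPM in bitten and 352 TPM in naive skin. The part of either cell type in the type IV values was not tested.

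COL17A1, the hemidesmosomal chain of basal keratinocytes, was at 183, 294 and 190 TPM in first exposure, 158, 108 and 271 TPM in saliva immune and 223 and 82.8 TPM in naive CK1 skin, where all groups overlapped. In EF19-5 it was at 233 and 360 TPM after 3 bites, 192 and 160 TPM after 2 bites and 105 TPM in naive skin. COL17A1 was thus above the naive library in every bitten one, as for 41.1% of all genes after 3 bites and 28.6% after 2 bites. The log2 difference of 3 bites from naive skin was 1.46 (SE 0.62, limma adjusted p = 1) and that of 2 bites 0.73 (SE 0.62, adjusted p = 0.969). Of 11 measured basal keratinocyte markers, none at 0 in any library, 11 were higher after 3 bites than in naive skin (60.5% of all genes were) and 8 after 2 bites (42.2%). Their summed share was 1.83% and 1.54% after 2 bites, 1.32% and 1.69% after 3 bites and 1.18% in naive replicate 3. By gene, 8 of 11 were higher and 3 lower after 3 bites than after 2 bites (median log2 difference 0.46, all genes 0.13). KRT14 averaged 12683 TPM after 2 bites and 9114 TPM after 3 bites, and KRT5 3399 and 4774 TPM. In CK1 all 11 were higher than in naive skin in both first exposure (64.5% of all genes) and saliva immune skin (68.1%). COL17A1 was higher there too, by log2 differences of 0.67 and 0.29. The summed marker share overlapped between these groups as COL17A1 did, at 1.01% to 1.74% in bitten and 1.26% and 0.654% in naive libraries. These marker counts were not redone without naive replicate 2. The part of basal keratinocyte content in the COL17A1 values was not tested.

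The FACIT chains COL14A1 and COL12A1 differed from naive skin in opposite directions in first exposure skin. Both coat fibrillar collagen, COL14A1 being known from settled tissue and COL12A1 from tissue under load or repair. COL14A1 (ENSCPOG00000008500) was at 12.5, 9.73 and 13.4 TPM in first exposure skin, 34.8, 44.0 and 38.8 TPM in saliva immune skin and 49.0 and 59.5 TPM in naive CK1 skin. These 3 groups did not overlap, and the 3 first exposure libraries were the lowest of all 13. Of all genes, 14.1% lay below naive skin without overlap in first exposure and 6.22% in saliva immune skin. Between the bitten CK1 groups, 5.41% of all genes were higher without overlap in saliva immune skin. The EF19-5 levels were 76.3 and 44.3 TPM after 2 bites, 125 and 20.3 TPM after 3 bites and 60.8 TPM in naive skin, with bitten libraries on both sides of the naive one.

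The mean COL14A1 level was 11.9 ± 1.92 TPM (SD, n = 3) in first exposure, 39.2 ± 4.60 TPM (n = 3) in saliva immune and 54.2 ± 7.40 TPM (n = 2) in naive CK1 skin. First exposure differed from naive skin by -2.10 on the log2 scale (SE 0.57, limma adjusted p = 0.216), the smallest p of the 26 chains there. Saliva immune skin differed from first exposure skin by 1.65 (SE 0.51, adjusted p = 1) and from naive skin by -0.46 (SE 0.57, adjusted p = 0.785).

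That test took its spread from all 13 libraries, including the 3 bites pair at 125 and 20.3 TPM. With the 8 CK1 libraries alone, the COL14A1 difference of first exposure from naive skin was the same -2.10 with an SE of 0.19 and a limma adjusted p of 0.0173, one of 5 genes of 14979 called. Leaving out 3 bites replicate 1 gave an adjusted p of 0.0419 and leaving out replicate 2 one of 0.0408, with 13 genes called each time. Over 23 alternatives the difference lay between -2.27 and -1.97 and was called in these 3.

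For saliva immune against first exposure skin, the CK1 libraries alone gave COL14A1 an adjusted p of 0.0941 by limma. It was called there with library weights (1.44, adjusted p = 0.0157), a setting under which 2174 of 14979 genes were called.

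Fibroblast marker levels differed between the same groups. The 13 measured fibroblast markers summed to 0.0559% to 0.0690% of TPM there, 0.0810% to 0.0986% in saliva immune skin and 0.0793% and 0.0821% in naive skin. In first exposure against naive skin 8 of 13 markers were lower and 5 higher. The lowest log2 difference among them was that of LUM (lumican), at 17.5 ± 4.26 TPM (n = 3) against 41.3 ± 2.40 TPM (n = 2), and the highest that of Thy1, at 92.5 ± 33.7 against 64.3 ± 28.6 TPM (log2 differences -1.22 and 0.53, limma adjusted p = 0.351 and 0.650). The ratio of COL14A1 to COL1A1 TPM was 0.0165, 0.00753 and 0.0195 in first exposure, 0.0355, 0.0539 and 0.0269 in saliva immune and 0.0349 and 0.0831 in naive CK1 skin. It was 0.0279 and 0.0239 after 2 bites, 0.0440 and 0.0152 after 3 bites and 0.0114 in naive replicate 3. Relative to type I collagen, the first exposure libraries were therefore the lowest of CK1, but unbitten naive replicate 3 was below 2 of them. The part of fibroblast content in the COL14A1 values was not tested.

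COL12A1 (ENSCPOG00000014388) had the smallest p of the 26 chains in bitten against naive skin. It was at 15.9, 19.8 and 16.9 TPM in first exposure, 12.3, 12.6 and 18.6 TPM in saliva immune and 11.4 and 6.04 TPM in naive CK1 skin. EF19-5 skin held 37.9 and 20.6 TPM after 2 bites, 29.5 and 20.0 TPM after 3 bites and 13.9 TPM in naive skin. Each of the 10 bitten libraries was above every naive library of its own experiment, although saliva immune replicates 1 and 2 were below naive replicate 3 of the other experiment. Of all genes, 21.9% did not overlap naive skin in that direction in first exposure and 18.5% in saliva immune skin. After 2 bites and 3 bites these shares were 28.6% and 41.1%. The share for all bitten groups together was not counted.

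Over both experiments COL12A1 averaged 20.4 ± 7.84 TPM (SD, n = 10) in bitten and 10.4 ± 4.00 TPM (n = 3) in naive skin. The log2 difference was 0.85 (SE 0.22, limma adjusted p = 0.128). It was 0.84 within CK1 and 0.87 within EF19-5, and the difference between experiments was 0.02 (SE 0.48). Over the alternatives the bitten effect lay between 0.64 and 1.07, with adjusted p-values from 0.0772 to 0.851. First exposure skin alone differed from naive skin by 0.98 (SE 0.32, adjusted p = 0.271).

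The ratio of COL12A1 to COL14A1 TPM put these values together. It was 1.28, 2.03 and 1.25 in first exposure, 0.353, 0.286 and 0.480 in saliva immune and 0.233 and 0.102 in naive CK1 skin. After 2 bites it was 0.496 and 0.466, after 3 bites 0.237 and 0.982, and in naive replicate 3 0.228. COL12A1 exceeded COL14A1 in the 3 first exposure libraries only, and each bitten library was above the naive libraries of its experiment. The ratio was looked at after both genes' values were known and has no test.

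**Figure D4:**
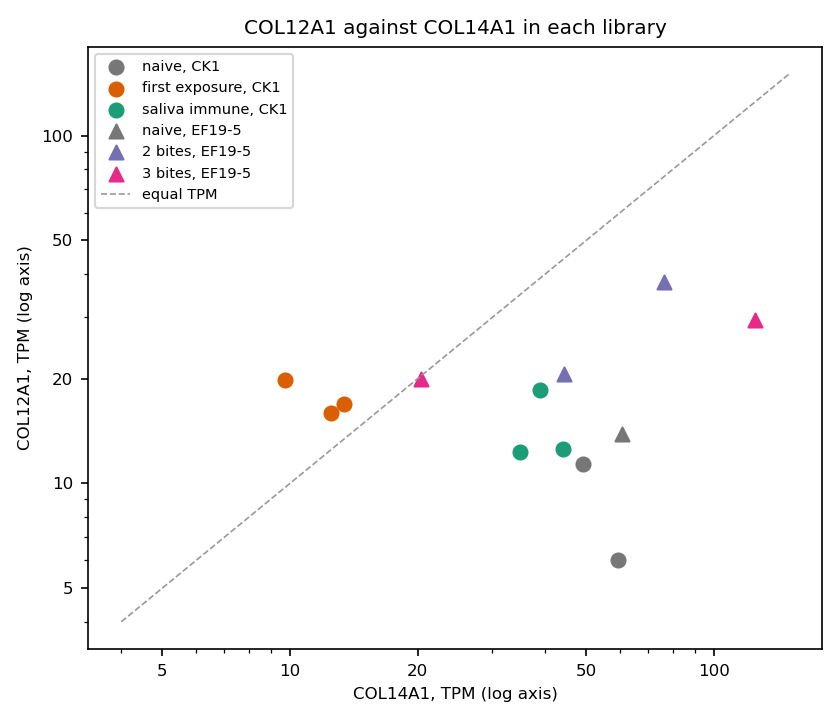
COL12A1 TPM against COL14A1 TPM in each of the 13 libraries, both on log axes; circles are CK1, triangles EF19-5, and colours are groups. The 3 first exposure libraries lie above the dashed line of equal TPM, 3 bites replicate 2 lies on it (ratio 0.982), and the others lie below.

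The third FACIT chain, COL21A1, was at 0.442, 0.220 and 0.244 TPM in first exposure, 0.703, 0.872 and 2.63 TPM in saliva immune and 1.44 and 0.885 TPM in naive CK1 skin. First exposure libraries were below all others of CK1, as for COL14A1, with log2 differences of -0.72 from naive (limma adjusted p = 0.516) and 0.80 for saliva immune against first exposure skin (adjusted p = 1). Of all genes, 14.1% were lower in every first exposure than in every naive CK1 library. In EF19-5 COL21A1 was at 3.57 and 2.93 TPM after 2 bites, 5.45 and 0.833 TPM after 3 bites and 4.12 TPM in naive skin.

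Among the beaded filament chains, COL6A2 and COL6A3, core chains of type VI, were lower in first exposure than in saliva immune skin. COL6A2 was at 69.8, 84.2 and 72.8 TPM in first exposure, 105, 134 and 120 TPM in saliva immune and 101 and 81.5 TPM in naive CK1 skin. COL6A3 was at 24.8, 21.6 and 20.5 TPM, 34.7, 37.0 and 43.0 TPM, and 31.8 and 25.0 TPM in the same groups. For both chains first exposure and saliva immune libraries did not overlap, as was so in that direction for 5.41% of all genes. The log2 difference of saliva immune from first exposure skin was 0.65 for COL6A2 (SE 0.39) and 0.75 for COL6A3 (SE 0.48), each with a limma adjusted p of 1.

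In EF19-5, COL6A2 was at 333 and 196 TPM after 2 bites, 313 and 85.6 TPM after 3 bites and 182 TPM in naive skin. COL6A3 was at 87.2 and 47.1 TPM, 130 and 24.3 TPM, and 54.2 TPM. Bitten libraries lay on both sides of the naive library.

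COL6A6, a chain that can replace COL6A3, was near the floor in first exposure skin. It was at 0.0363, 0.0147 and 0.0733 TPM there, 0.450, 0.850 and 0.452 TPM in saliva immune and 1.80 and 3.21 TPM in naive CK1 skin, and the 3 groups did not overlap. Of all genes, 14.1% lay below naive skin without overlap in first exposure and 6.22% in saliva immune skin. EF19-5 libraries had 0.690 and 0.801 TPM after 2 bites, 5.02 and 0.312 TPM after 3 bites and 2.27 TPM in naive skin, so 3 of the 4 bitten libraries were below the naive one. The log2 difference from naive skin was -1.72 in first exposure (SE 0.50, limma adjusted p = 0.228) and -1.13 in saliva immune skin (SE 0.50, adjusted p = 0.429). Over both experiments it was -1.12 (SE 0.38, adjusted p = 0.207). Without 3 bites replicate 1 it was -1.30 with a limma adjusted p of 0.0491, one of 31 genes called. COL6A6 reached 1 TPM only in the 3 naive libraries and in 3 bites replicate 1. Without that bitten library every value of at least 1 TPM is naive, so the lower bitten level is not independent of the filter. COL6A5, the fourth of these chains, differed from naive skin the other way. It was at 0.273, 0.651 and 0.586 TPM in first exposure, 0.369, 0.745 and 0.518 TPM in saliva immune and 0.208 and 0.207 TPM in naive CK1 skin. In EF19-5 it was at 1.77 and 1.17 TPM after 2 bites, 3.86 and 0.480 TPM after 3 bites and 0.328 TPM in naive skin. Every bitten library was above the naive libraries of its experiment, at levels mostly under 1 TPM. Of all genes, 21.9% did not overlap naive skin in that direction in first exposure and 18.5% in saliva immune skin. After 2 bites and 3 bites these shares were 28.6% and 41.1%. The 3 libraries in which COL6A5 reached 1 TPM were all bitten EF19-5 libraries. It passed the filter only through bitten skin, so this separation is not independent of the filter. The COL6A5 difference over both experiments was 0.54 (SE 0.28, limma adjusted p = 0.361).

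Over all 26 chains, 5 were higher in every saliva immune library than in every first exposure library (COL14A1, COL21A1, COL6A2, COL6A3 and COL6A6), where 5.41% of all genes did not overlap in that direction, and 0 were lower (1.35%). For first exposure against naive skin the non-overlapping chains numbered 4 higher and 7 lower (21.9% and 14.1% of all genes), and for saliva immune against naive skin 7 higher and 2 lower (18.5% and 6.22%). In EF19-5 the numbers were 8 higher and 10 lower after 2 bites against naive skin (28.6% and 43.3%), 7 higher and 6 lower after 3 bites against naive skin (41.1% and 24.2%), and 5 higher and 0 lower after 3 bites against 2 bites (35.6% and 11.5%). With 1 naive library such a separation asks little. No chain separated all 10 bitten from all 3 naive libraries, higher or lower, as 1.03% and 0.28% of all genes did. The comparisons share their first exposure, saliva immune, bitten or naive libraries and are not independent.

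COL8A1, a short-chain network collagen of vessels and wounds, was at 20.9, 14.6 and 17.3 TPM in first exposure, 20.4, 17.5 and 9.02 TPM in saliva immune and 10.6 and 5.21 TPM in naive CK1 skin. EF19-5 skin held 34.9 and 10.5 TPM after 2 bites, 15.5 and 9.16 TPM after 3 bites and 6.84 TPM in naive skin. Of the 10 bitten libraries, only saliva immune replicate 3 was below a naive library of its experiment. The log2 difference of bitten from naive skin was 1.02 (SE 0.34, limma adjusted p = 0.199), 1.01 within CK1 and 1.05 within EF19-5. Its partner COL8A2 stayed between 2.48 and 4.98 TPM.

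COL26A1, a short collagen chain outside the main classes, was at 1.68, 0.955 and 1.03 TPM in first exposure, 1.55, 0.804 and 2.12 TPM in saliva immune and 3.06 and 1.16 TPM in naive CK1 skin. In EF19-5 it was at 0.647 and 2.30 TPM after 2 bites, 3.48 and 2.42 TPM after 3 bites and 4.32 TPM in naive skin. All bitten COL26A1 values were below the naive one, as for 43.3% of all genes after 2 bites and 24.2% after 3 bites. The log2 difference of 2 bites from naive skin was -1.19 (SE 0.52, limma adjusted p = 0.832). COL28A1 ranged from 0.184 to 4.00 TPM, and the transmembrane chains COL13A1 and COL25A1 from 0.446 to 2.10 and from 0.381 to 2.18 TPM.

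Other genes of collagen biology were taken from 6 lists by role, restricted to genes that passed the filter, and none of their members was called in any of the 8 comparisons. Of 24 genes of chain synthesis and folding, 18 were higher and 6 lower in bitten than in naive skin, with a median log2 difference of 0.10, equal to that of all genes. P4HA2, a subunit of the enzyme that hydroxylates proline in new chains, was at 30.2 ± 8.42 TPM (n = 10) in bitten and 38.4 ± 6.98 TPM (n = 3) in naive skin, a log2 difference of -0.40 (SE 0.15, limma adjusted p = 0.224). Its partner subunit P4HB was at 285 ± 59.3 and 233 ± 63.0 TPM (0.26, adjusted p = 0.259). P3H2, which modifies proline at another position, was at 29.8 ± 10.4 and 19.7 ± 8.69 TPM (0.54, adjusted p = 0.309).

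Of 11 genes of procollagen processing and crosslinking, 6 were higher and 5 lower in bitten skin (median 0.14). PCOLCE2, an enhancer of procollagen C-propeptide cleavage, was at 18.6, 10.7 and 10.5 TPM in first exposure, 36.7, 52.8 and 22.8 TPM in saliva immune and 47.0 and 88.1 TPM in naive CK1 skin. Its first exposure libraries were below all other CK1 libraries, as for COL14A1. Of all genes, 14.1% were lower in every first exposure than in every naive CK1 library. The PCOLCE2 difference of first exposure from naive skin was -2.24 (SE 0.61, limma adjusted p = 0.222). Over both experiments it was -1.36 (adjusted p = 0.228). The propeptide-cleaving enzymes TLL1 and ADAMTS14 differed by 0.52 (adjusted p = 0.257) and 0.43 (adjusted p = 0.364).

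Of 15 fibril-associated proteoglycans and glycoproteins, 8 were higher and 7 lower in bitten skin (median 0.00). TNC (tenascin C), a matrix protein of wounds, was at 10.8, 15.2 and 26.9 TPM in first exposure, 20.7, 17.0 and 17.5 TPM in saliva immune and 12.1 and 2.23 TPM in naive CK1 skin. In EF19-5 it was at 57.9 and 42.8 TPM after 2 bites, 29.7 and 21.4 TPM after 3 bites and 9.02 TPM in naive skin. Only first exposure replicate 1 was below a naive library of its experiment, and the difference of bitten from naive skin was 1.62 (SE 0.38, limma adjusted p = 0.113). OGN (osteoglycin), a small proteoglycan on collagen fibres, was at 6.40 ± 4.91 TPM (n = 10) in bitten and 12.2 ± 6.90 TPM (n = 3) in naive skin (-0.99, adjusted p = 0.198). THBS2 (thrombospondin 2) was at 73.1 ± 19.8 and 48.8 ± 19.7 TPM (0.61, adjusted p = 0.301).

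Collagen receptors gave 5 of 8 genes higher and 3 lower in bitten skin (median 0.19). The integrin subunits ITGA10, ITGA2 and ITGB1 differed by 0.46, 0.62 and 0.20, with limma adjusted p-values of 0.335, 0.377 and 0.415. All 7 genes of collagen breakdown that passed the filter were higher in bitten skin (median 0.31, all genes 0.10). By group, 7 of 7 were higher than in naive skin in first exposure and in saliva immune skin and 6 of 7 after 2 bites, but 3 were higher and 4 lower after 3 bites (median -0.06, all genes 0.08). MMP9, which degrades type IV and denatured collagen, was at 1.77, 3.44 and 4.96 TPM in first exposure, 5.51, 2.11 and 1.18 TPM in saliva immune and 0.710 and 0.0926 TPM in naive CK1 skin. It was at 15.5 and 26.6 TPM after 2 bites, 4.87 and 1.00 TPM after 3 bites and 2.56 TPM in naive replicate 3, a log2 difference of 1.41 for bitten against naive skin (SE 0.60, adjusted p = 0.285). The lysosomal protease CTSB and the proline dipeptidase PEPD differed by 0.36 (adjusted p = 0.363) and 0.23 (adjusted p = 0.398).

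Regulators of collagen genes were split, with 7 of 14 higher and 7 lower in bitten skin (median 0.00). The tendon transcription factor MKX was at 1.72 ± 0.542 TPM (n = 10) in bitten and 0.914 ± 0.148 TPM (n = 3) in naive skin (0.50, limma adjusted p = 0.225). EGR1, an immediate early transcription factor, was at 249 ± 135 and 512 ± 328 TPM (-1.02, adjusted p = 0.306), and the receptor TGFBR1 at 10.4 ± 1.15 and 8.73 ± 0.331 TPM (0.22, adjusted p = 0.367).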

How the data were processed

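RNA had been isolated from guinea pig skin with a Qiagen RNeasy kit and sequenced on Illumina libraries, per the labels' protocols. The authors deposited TPM values of 13 libraries, and every column adds up to 1000000. Per the submitters' processing notes, the tools were Trimmomatic, StringTie and DESeq, with neither version nor role; no source used here gives the aligner, genome build or annotation. TPM hides the sequencing depth, and because it is a share, more muscle RNA in a sample leaves less for collagen. Of the 26855 genes, 18254 carry a symbol, and the 8601 without one could not be searched for collagen chains. Letter case in symbols was ignored.

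The 14979 genes that reached 1 TPM in 2 or more libraries were tested on log2(TPM + 1), a pseudocount of 1, with limma 3.58.1 in R 4.3.3 (empirical Bayes with an intensity trend, two-sided, Benjamini-Hochberg, adjusted p under 0.05); the table was read with Python 3.11.15 and pandas 2.3.3. The model had 1 mean for each of 6 combinations of group and experiment. For all bitten against all naive libraries, the model held exposure and experiment as terms, and their interaction gave the difference between experiments. The fit was also run on simulated data with 200 changed genes, and the share recovered is not reported here. With 1 to 3 libraries in each group, 0 chains called does not mean that no chain changed. With this pseudocount a difference at low TPM comes out smaller than the ratio of the levels.

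Classes and lists were fixed by symbol; the members and lists were chosen with earlier results of these data known. Per-library values were given for the 2 chains highest in mean TPM in each main class, the 4 with the smallest p in bitten against naive skin and the 2 with the smallest p in each other comparison. Of each pathway list the 3 genes with the smallest p in bitten against naive skin were named. PCOLCE2, TNC and MMP9 library values, COL5A1, COL5A2, COL6A5, COL18A1, COL4A5, ADIPOQ, Dcn, LUM and Thy1 were chosen after their values were seen. Alternatives were another pseudocount, other filters, scalings and weights, no trend, no experiment term, 1 experiment at a time and each library left out.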

Additional observations from a re-analysis of the deposited data

Results flagged for a closer look

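Each chain's highest and lowest value among the 10 bitten libraries was set against the others by Dixon's gap ratio. Of 26 chains, 4 had a highest library that stood apart. Chance alone gives about 1 in 20 groups when all values come from 1 normal distribution. COL8A1 was at 34.9 TPM in 2 bites replicate 1. COL6A6 and COL6A5, related chains of type VI, were at 5.02 and 3.86 TPM in 3 bites replicate 1, the bitten library with the highest COL3A1 and COL14A1 levels too. COL25A1, a transmembrane chain, was at 2.18 TPM in 2 bites replicate 2. These groups mix 4 exposures and 2 experiments, which were not separated here, and TPM was used without logs. The number of flagged chains therefore cannot be set against that rate. All 4 values came from EF19-5 libraries.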

How the results depend on the processing

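The number of chains called stayed at 0 in every comparison under another pseudocount, other filters, other scalings and no trend. It became 1 in first exposure against naive skin with the CK1 libraries alone (COL14A1), and 0 to 1 with each library left out (COL14A1 without either 3 bites replicate). It became 1 in saliva immune against first exposure skin with library weights (COL14A1), and 0 to 1 in bitten against naive skin with each library left out (COL6A6 without 3 bites replicate 1). The other comparisons stayed at 0 throughout, a range of 0 to 0 without each library. No value changed sign past the threshold. Naive replicate 3 could not be left out of the EF19-5 comparisons with naive skin or of the test between experiments, which need it. The mean collagen share of each of the 5 groups with 2 or more libraries moved by less than its SD when muscle, or muscle and fat, markers were left out of the totals, and that of naive replicate 3, with no SD, moved from 1.27% to at most 1.31%. The depth is unknown, so the precision of levels near 1 TPM cannot be given. No paired analysis was possible because replicate numbers follow the order of the samples and the labels tie no library of one group to a library of another.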
